A study of Bombyx mori with 12 samples.

Results

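This account describes 11 genes of the silkworm Bombyx mori whose transcripts were lower in tetramolters than in trimolters in each of 2 batches, out of 17072 annotated rows of the count table, of which 9354 had a mean of at least 2 CPM (a count scaled by its library total). The 11 genes were chosen by their own values. In each batch, the difference of the group means of log2(CPM + 1) was -0.8 or lower and the highest tetramolter library lay below the lowest trimolter library. Genes with symbols of cuticle protein, serpin, ribosomal protein and detoxification enzyme families were left out of the choice, among them every gene with a Cyp symbol, which includes enzymes of ecdysteroid synthesis. Those tetramolter against trimolter values are therefore descriptions, given without a test.

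The libraries were made from poly(A) RNA of head and thorax of Guangri 3 larvae (spelled Gurangri 3 in the sample labels), fed on mulberry leaves and sampled at the molt of the third instar. Guangri 3 is a dominant trimolter strain, in which the tetramolters go through 1 more larval molt than the trimolters. The 12 libraries form 4 groups of 3, trimolters and tetramolters of batch 1 and trimolters and tetramolters of batch 2, all of the same strain and tissue and with no transgene or drug named. Larvae were reared in spring and, warmer, in autumn, but no label ties a season to a batch, so rearing season, temperature, day length and batch cannot be told apart. The series text speaks of 3 silkworms of each molting type per season, but the labels do not tie a library to 1 animal, so p-values measure only the spread between these libraries, which may be technical.

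In insects, a pulse of ecdysteroid starts each molt, and juvenile hormone decides whether that molt leads to another larval stage or towards metamorphosis. Both hormones are made in glands of the head and thorax, and the cuticle, muscles, nervous system and tracheae of the same body parts take part in the molt. Of the 11 genes, EAAT-2 alone has a symbol other than a LOC number. It encodes an excitatory amino acid transporter, a membrane protein that takes acidic amino acids up from outside the cell, and in Drosophila transporters of this family act in glia and at synapses. The other 10 genes carry LOC numbers, and no product or function is given for them in the sources used here. All 11 are named below, because they are few.

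**Figure D1:**
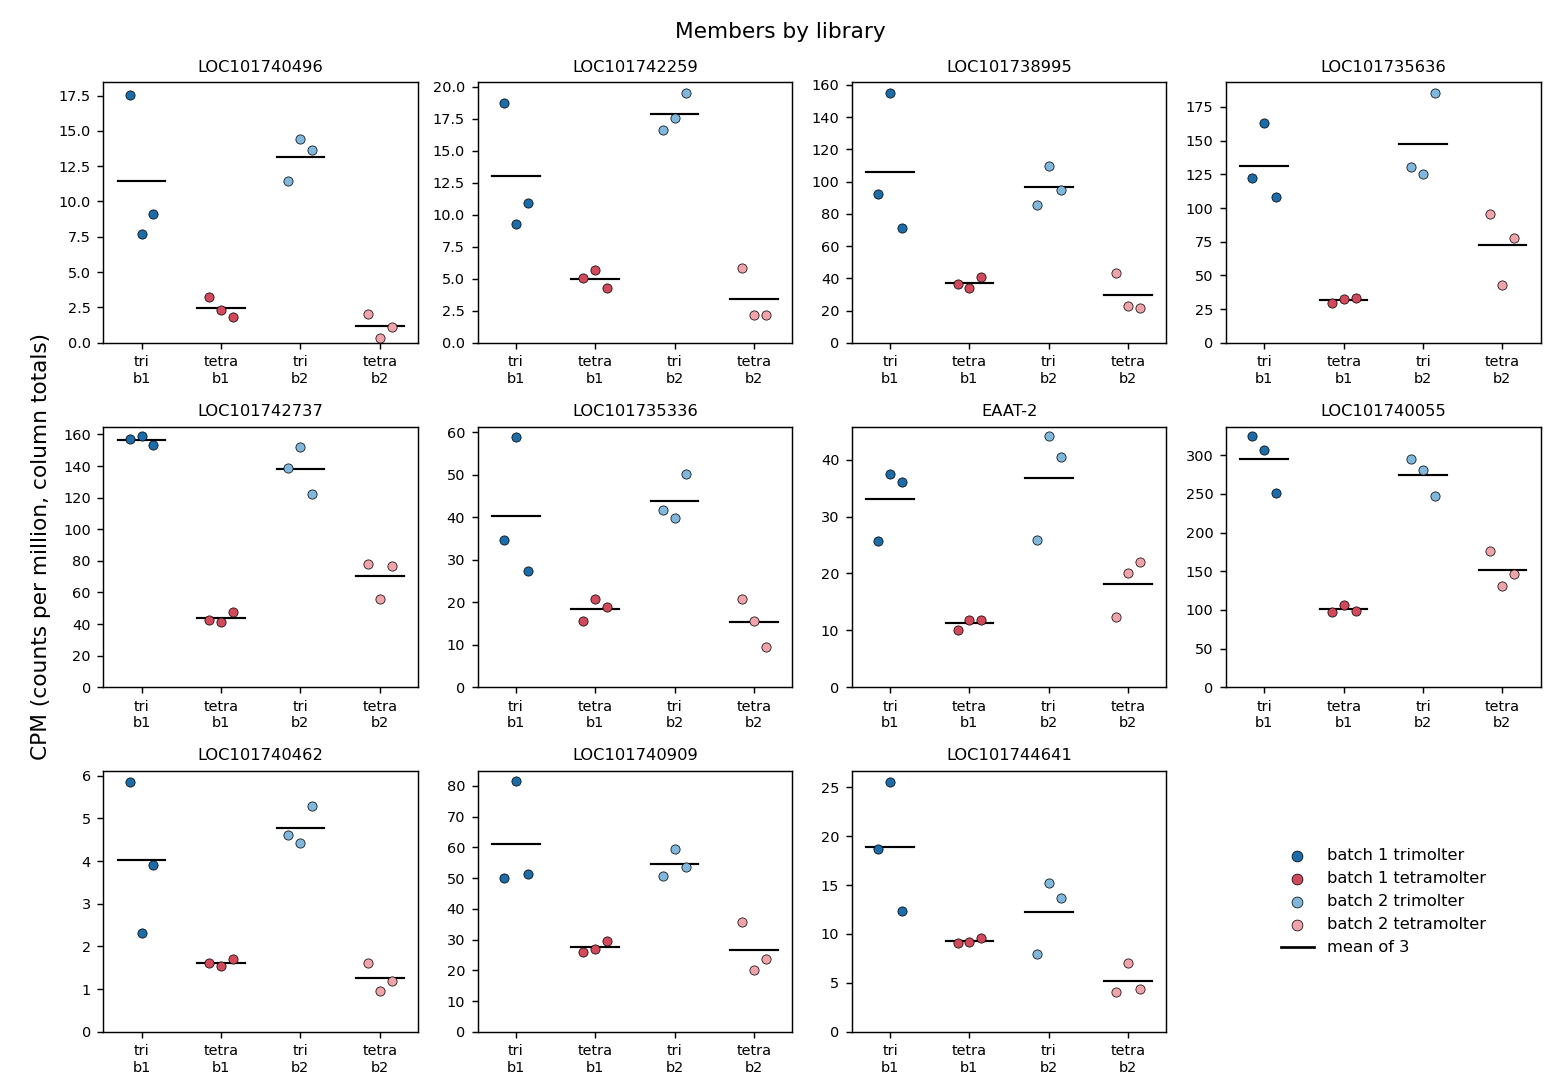
CPM by column totals (vertical axis, from 0, a scale of its own in each panel) of the 11 genes in trimolters (tri) and tetramolters (tetra) of batch 1 (b1) and batch 2 (b2); points are libraries and lines are means of 3. In each panel and each batch the 3 tetramolter points lie below the 3 trimolter points, as the choice of genes required.

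The largest difference in batch 2 was that of LOC101740496, a gene of low level. Its trimolter libraries held 17.6, 7.67 and 9.14 CPM in batch 1 and 11.4, 14.4 and 13.6 CPM in batch 2. Its tetramolter libraries held 3.27, 2.36 and 1.84 CPM in batch 1 and 2.07, 0.344 and 1.12 CPM in batch 2. The tetramolter mean was thus 21.7% of the trimolter mean in batch 1 and 8.93% in batch 2, and the batch 2 tetramolter values rest on 31, 5 and 17 counts. The differences of mean log2(CPM + 1) were -1.78 and -2.78, which understate the change of so low a gene.

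LOC101742259 showed the same order of groups. It was at 18.7, 9.31 and 11 CPM in the batch 1 trimolters and at 5.06, 5.72 and 4.27 CPM in the batch 1 tetramolters. In batch 2 it was at 16.6, 17.5 and 19.5 CPM in trimolters and at 5.8, 2.2 and 2.17 CPM in tetramolters. Here too the tetramolters kept less of the trimolter level in batch 2 (19.0%) than in batch 1 (38.6%).

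LOC101738995, at a higher level, was at 92.0, 155 and 71.0 CPM in the batch 1 trimolters and at 36.3, 33.7 and 40.9 CPM in the tetramolters of that batch. In batch 2 the trimolters held 85.7, 109.5 and 94.9 CPM and the tetramolters 43.6, 22.7 and 21.9 CPM. The differences were -1.42 and -1.75, and the batch 1 trimolters spread the most, from 71.0 to 155 CPM.

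Among the genes with a larger difference in batch 1 than in batch 2, LOC101735636 had the largest in batch 1. It went from 123, 163 and 108 CPM in the trimolters to 29.8, 32.2 and 33.3 CPM in the tetramolters of batch 1. In batch 2 it was at 131, 125 and 186 CPM in trimolters and at 95.5, 43.0 and 78.1 CPM in tetramolters. The tetramolter libraries of batch 1 lay close together and those of batch 2 far apart, and the difference shrank from -1.99 to -1.07.

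LOC101742737 had the tightest trimolter values of the set in batch 1, at 157, 159 and 154 CPM, with 42.6, 41.4 and 47.9 CPM in the tetramolters. Its batch 2 trimolters were at 139, 152 and 123 CPM and its batch 2 tetramolters at 78.1, 55.7 and 76.9 CPM. The tetramolters of batch 2 all lay above those of batch 1. The trimolters of batch 2 all lay below those of batch 1 by column totals, with 152 CPM against 154 CPM at the nearest, but not with TMM factors. The tetramolter share of the trimolter mean was 28.1% in batch 1 and 51.0% in batch 2.

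LOC101740055 had the highest mean of the set by count, 205 CPM over the 12 libraries. It was at 325, 307 and 251 CPM in the trimolters and 97.8, 107 and 98.9 CPM in the tetramolters of batch 1. In batch 2 it was at 296, 281 and 247 CPM in trimolters and 176, 131 and 147 CPM in tetramolters. With a difference of -0.86 in batch 2 it stood nearest to the threshold of -0.8.

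EAAT-2, the amino acid transporter gene, was at 25.7, 37.4 and 36.2 CPM in the batch 1 trimolters and at 10.1, 11.8 and 11.8 CPM in the batch 1 tetramolters. In batch 2 it was at 25.8, 44.1 and 40.5 CPM in trimolters and at 12.4, 20.1 and 22.0 CPM in tetramolters. The gap between the lowest trimolter and the highest tetramolter library was 13.9 CPM in batch 1 and 3.83 CPM in batch 2. The difference was -1.46 in batch 1 and -0.98 in batch 2, and in batch 2 it came to -0.74 without tetramolter 1.

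EAAT-1, another gene of that transporter family, was looked up after the values of EAAT-2 had been seen, and it did not share this order. It was at 57.2, 27.9 and 60.5 CPM in the batch 1 trimolters and at 39.5, 39.0 and 41.9 CPM in the tetramolters, so that those groups overlapped. In batch 2 its tetramolters, at 39.2, 41.6 and 42.2 CPM, lay above its trimolters, at 34.3, 26.7 and 29.7 CPM. The fitted changes of EAAT-1 did not pass edgeR's quasi-likelihood test in either batch (log2 fold change -0.17, SE 0.22, adjusted p = 0.544 in batch 1, and 0.35, SE 0.22, adjusted p = 0.24 in batch 2). Without batch 1 trimolter 2 both changes passed in edgeR, at -0.45 (SE 0.12, adjusted p = 0.00867) and 0.35 (SE 0.11, adjusted p = 0.0217). That library is not in the batch 2 comparison, whose size stayed at 0.35 while the SE, from a spread shared by all groups, fell. In an edgeR fit to the batch 2 groups alone the change also passed (0.34, SE 0.12, adjusted p = 0.0404).

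The remaining 4 genes had differences between -0.88 and -1.52. LOC101735336 was at 34.7, 58.8 and 27.4 CPM in trimolters and 15.6, 20.7 and 19.0 CPM in tetramolters of batch 1, and its batch 2 groups were at 41.7, 39.8 and 50.2 CPM and at 20.8, 15.6 and 9.40 CPM. LOC101740909 differed by nearly the same amount in both batches, -1.09 and -1.05. Its trimolters ranged from 50.2 to 81.7 CPM in batch 1 and from 50.6 to 59.5 CPM in batch 2, and its tetramolters from 25.9 to 29.4 CPM and from 20.1 to 35.8 CPM.

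LOC101740462 was the least abundant, at 5.86, 2.31 and 3.90 CPM in the batch 1 trimolters and 1.60, 1.55 and 1.71 CPM in the tetramolters. In batch 2 it held 4.61, 4.41 and 5.30 CPM in trimolters and 1.60, 0.962 and 1.18 CPM in tetramolters. Its tetramolter libraries had 14 to 26 counts each. LOC101744641 was at 18.6, 25.6 and 12.4 CPM in trimolters and 9.03, 9.22 and 9.60 CPM in tetramolters of batch 1, then at 7.92, 15.2 and 13.7 CPM and at 4.07, 7.01 and 4.40 CPM in batch 2. It was the 1 gene of the 11 in which a trimolter library, batch 2 trimolter 1, lay below tetramolter libraries of the other batch.

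For the other 10 genes, all 6 tetramolter libraries lay below all 6 trimolter libraries, an order that 1.29% of the 9354 genes showed. The choice of genes used the order within each batch, so nothing is read from that share. Batch by batch, the same conditions on size and order held for 1032 genes (11%) in batch 1 and 591 genes (6.32%) in batch 2, and for 14 genes in both. Of these 14, serpin-9, CPH13 and CPH10 were left out by symbol. By contrast, 465 genes met the conditions as lower in batch 1 and higher in batch 2, and 285 as higher in batch 1 and lower in batch 2. The edgeR fit to all 12 libraries called 22.7% of the 10721 tested genes lower in tetramolters in batch 1 and 18.3% in batch 2. The 11 genes are not set against these shares, since the values that chose them fixed that outcome.

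**Figure D2:**
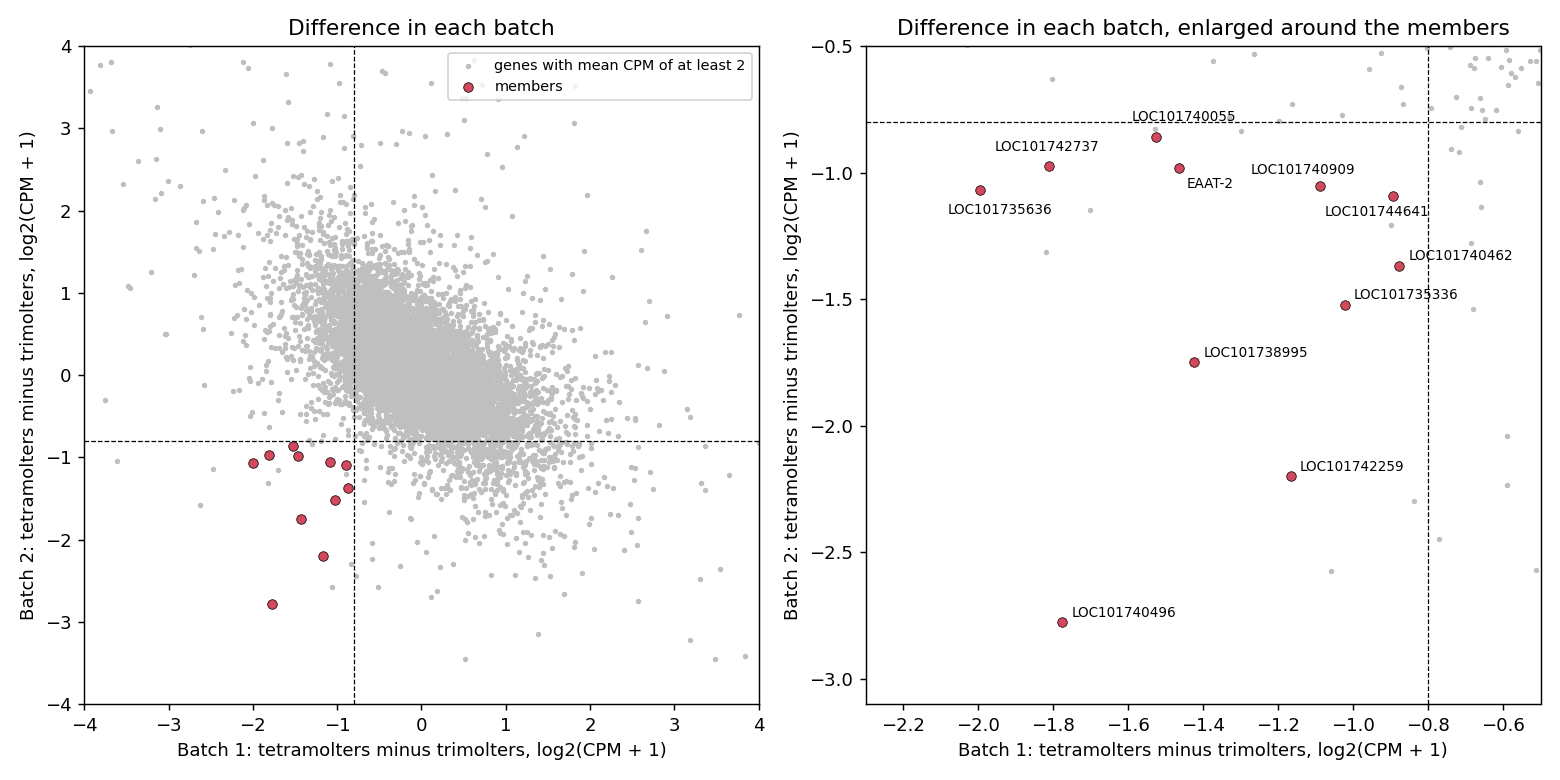
Difference of mean log2(CPM + 1), tetramolters minus trimolters, in batch 1 (horizontal) and batch 2 (vertical) for the 9354 genes with a mean of at least 2 CPM (grey) and the 11 members (red), enlarged at right; dashed lines mark -0.8. The left panel leaves out 26 genes beyond 4 log2 units on an axis, and the members range from -1.99 to -0.88 in batch 1 and from -2.78 to -0.86 in batch 2.

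Just inside the size threshold lay LOC101740055 (-0.86 in batch 2), LOC101740462 (-0.88 in batch 1) and LOC101744641 (-0.89 in batch 1). Just outside lay LOC101738834 (-1.20 and -0.796), LOC101741904 (-1.03 and -0.77) and LOC101737000 (-0.77 and -2.45). A further 5 genes missed the set through an overlap of libraries alone and 4 through a low mean level alone. Leaving out 1 library at a time moved the number of genes that met the rule between 9 and 16. Members also dropped out: LOC101740462, LOC101735336, LOC101744641, EAAT-2, LOC101735636 and LOC101740055 each failed the rule in 1 of these runs.

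Within the set the balance between batches differed from gene to gene. The difference was larger in batch 1 by more than 0.4 log2 units for 4 genes, LOC101735636, LOC101742737, LOC101740055 and EAAT-2. It was larger in batch 2 by more than 0.4 for 4 others, LOC101742259, LOC101740496, LOC101735336 and LOC101740462. The remaining 3, LOC101738995, LOC101744641 and LOC101740909, lay within 0.4. The split depends on the scale near its edge, since with edgeR's fitted changes EAAT-2 (0.35) came within 0.4 and LOC101744641 (-0.41) fell among the genes with the larger difference in batch 2. Over the 11 genes the tetramolter share of the trimolter mean ran from 21.7% to 49.2% in batch 1, with a median of 34.9%, and from 8.93% to 55.1% in batch 2, with a median of 42.1%.

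The rule set no condition on the comparison between batches, which was tested with edgeR in each molting type. The same libraries enter both, however, and a gene whose level shifted strongly between batches in 1 molting type was less likely to meet the rule in both batches. The counts of members are therefore given beside those of all tested genes as a description, and nothing is read from their being lower. In the trimolters, none of the 11 genes differed between batch 2 and batch 1 (edgeR, adjusted p under 0.05), where 15.5% of all tested genes did. At an unadjusted p under 0.05 the count was also 0, with a smallest p of 0.0636 for LOC101744641 (edgeR), and DESeq2, limma-voom and limma on FPKM called 0 as well. The fitted log2 changes of the trimolters ran from -0.60 (SE 0.29, LOC101744641) to 0.48 (SE 0.34, LOC101742259). Their median size without sign was 0.18, against 0.30 over all tested genes. These values do not show that the genes were at the same level in both batches. By column totals, LOC101742737 alone had ranges apart, lower in batch 2, where 16.9% of the 9354 genes were, and 0 of the 11 genes had them apart in the other direction, where 15.4% were. With TMM factors the trimolter ranges of LOC101742737 overlapped too. The trimolter libraries of batch 1 spread widely in this set. The median SD of log2(CPM + 1) was 0.490 over the 11 genes against 0.249 over all 9354, whereas it was 0.164 against 0.129 in the batch 2 trimolters. The batch 2 tetramolters spread widely in this set too, at 0.419 against 0.160, and the batch 1 tetramolters were at 0.109 against 0.0959.

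In the tetramolters, 4 of the 11 genes differed between the batches (edgeR, adjusted p under 0.05), where 58.8% of all tested genes did. Of these, 3 were higher in batch 2, against 29.2% of all tested genes, and 1 was lower, against 29.7%. LOC101735636 rose in batch 2 by 1.02 log2 units (SE 0.27, edgeR adjusted p = 0.00659), with 43.0 to 95.5 CPM against 29.8 to 33.3 CPM. LOC101742737 rose by 0.51 (SE 0.14, edgeR adjusted p = 0.00692). LOC101740055 rose by 0.42 (SE 0.14, edgeR adjusted p = 0.0266), a call that did not hold when batch 1 tetramolter 1, batch 1 tetramolter 3 or batch 2 tetramolter 1 was left out (highest edgeR adjusted p = 0.118). In these 3 genes every batch 2 tetramolter library lay above every batch 1 tetramolter library.

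LOC101744641 fell by 1.01 log2 units in the batch 2 tetramolters (SE 0.31, edgeR adjusted p = 0.015). Its 3 libraries lay below those of batch 1, and the call was lost without batch 2 tetramolter 1 or 3 (edgeR adjusted p = 0.0579 and 0.0582). By column totals EAAT-2 was also higher in every batch 2 tetramolter library than in any of batch 1, but with TMM factors the ranges overlapped (10.8 to 12.5 CPM in batch 1 and 11.9 to 20.6 CPM in batch 2). Its fitted change of 0.53 (SE 0.24) did not pass (edgeR adjusted p = 0.0777). It passed without batch 2 tetramolter 1 (0.74, adjusted p = 0.0169), without batch 2 trimolter 1 (0.53, adjusted p = 0.0449), and in a fit to the tetramolters alone (0.56, adjusted p = 0.0302). By column totals, ranges of the tetramolter batches were thus apart for 4 genes higher in batch 2, where 44.5% of the 9354 genes were, and for 1 gene lower, where 30.3% were. With TMM factors the numbers were 3 (37.3% of all) and 2 (36.8%), LOC101740462 being the addition.

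LOC101740496 had the largest fitted change between the tetramolter groups, -1.23 (SE 0.50), without passing (edgeR adjusted p = 0.0518), and it passed in DESeq2 (-1.22, adjusted p = 0.0202) and without batch 1 trimolter 1 or 2 or batch 2 tetramolter 1 (edgeR adjusted p = 0.0246, 0.0429 and 0.0115). LOC101742259 (-0.72, SE 0.38) and LOC101738995 (-0.49, SE 0.31) did not pass with all libraries and did without batch 2 tetramolter 1 (-1.37, edgeR adjusted p = 0.00388, and -0.90, edgeR adjusted p = 0.0195). LOC101740462 (-0.54), LOC101735336 (-0.43) and LOC101740909 (-0.21) did not pass. TMM scaling moved the median change of all genes between the tetramolter groups by -0.14 log2 units against column totals, so these fitted changes are relative to TMM.

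**Figure D3:**
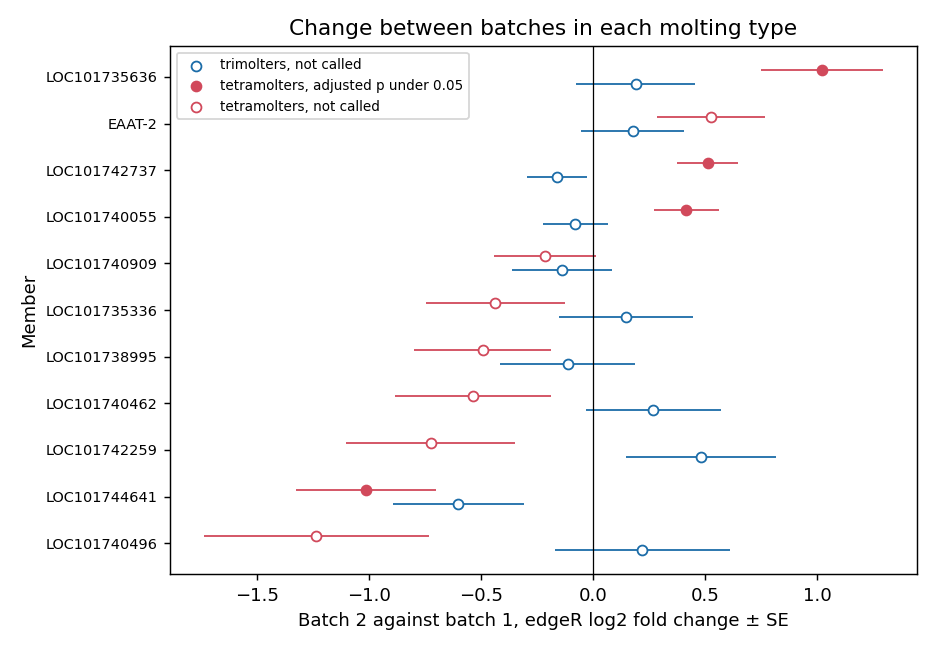
EdgeR log2 fold change of batch 2 against batch 1 (horizontal, bars are ± 1 SE) for each member, in trimolters (blue) and tetramolters (red), 3 libraries per group; filled points passed an adjusted p of 0.05. The blue points lie between -0.60 and 0.48 and none is filled, while the red points run from -1.23 to 1.02 with 4 filled.

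Averaged over both molting types, 2 of the 11 genes differed between batches, against 37.2% of all tested genes. LOC101744641 fell by 0.81 (SE 0.21, edgeR adjusted p = 0.0124), and its means were 18.9 ± 6.60 and 12.3 ± 3.84 CPM in trimolters of batch 1 and batch 2 and 9.28 ± 0.288 and 5.16 ± 1.61 CPM in tetramolters (SD, n = 3 each). LOC101735636 rose by 0.61 (SE 0.19, edgeR adjusted p = 0.0258), and its call did not hold when any 1 of these 6 libraries was left out: trimolter 3 and tetramolters 1 and 2 of batch 1, and trimolter 3 and tetramolters 1 and 3 of batch 2 (highest edgeR adjusted p = 0.0659). EAAT-2 (0.35, edgeR adjusted p = 0.114) did not pass with all libraries, and it passed without batch 2 trimolter 1 (0.45, edgeR adjusted p = 0.0413) or batch 2 tetramolter 1 (0.46, edgeR adjusted p = 0.036). Library 1 held the lowest EAAT-2 value in all 4 groups. LOC101742737 (0.18, edgeR adjusted p = 0.167) passed without batch 2 tetramolter 2 (0.25, edgeR adjusted p = 0.0322).

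Within groups, libraries did not deviate evenly. Batch 2 tetramolter 1 held the highest value of its group for 9 of the 11 genes, the exceptions being EAAT-2 and LOC101744641, for which it held the lowest. Without it, the tetramolter share of the trimolter mean in batch 2 went from 8.93% to 5.54% for LOC101740496, from 19.0% to 12.2% for LOC101742259 and from 49.4% to 57.2% for EAAT-2. In the batch 1 trimolters, library 1 was highest for 4 genes and library 2 for 7. LOC101740496, LOC101742259 and LOC101740462 were highest in library 1 and lowest in library 2. LOC101738995, LOC101735336, LOC101735636, LOC101742737 and LOC101744641 were highest in library 2 and lowest in library 3. Library 3 was lowest for 6 genes and highest for 0. Within that group, then, the genes did not all deviate in the same direction in a library.

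**Figure D4:**
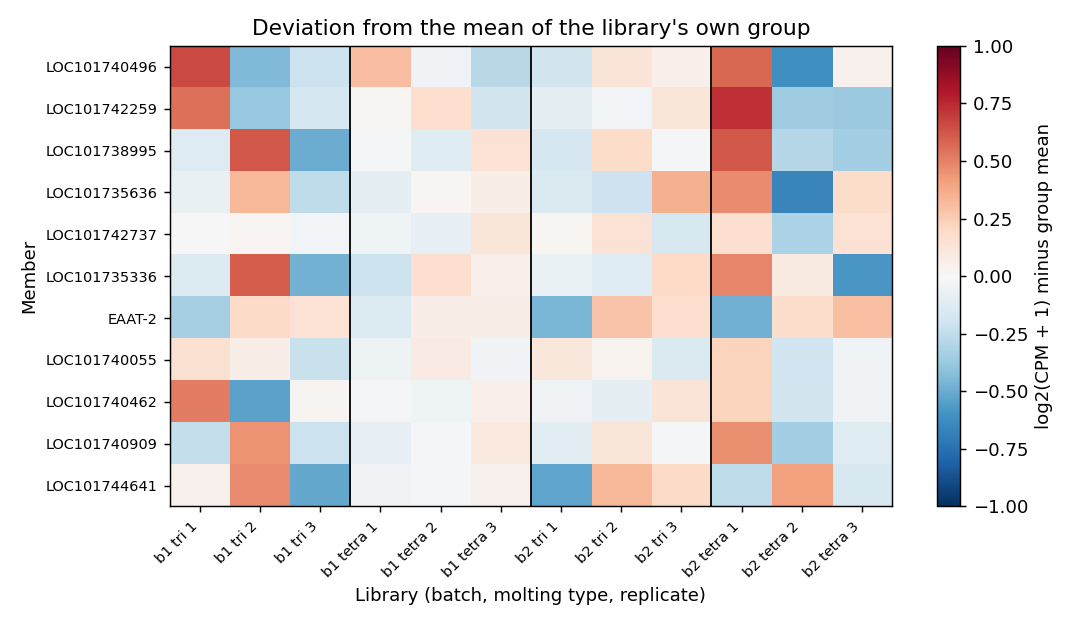
Deviation of log2(CPM + 1) from the mean of the library's own group (colour, red above and blue below, scale from -1 to 1) for each member (rows) and library (columns, b1 and b2 for batches, tri and tetra for molting types). Batch 2 tetramolter 1 is red for 9 of 11 genes, the batch 1 tetramolters are mostly pale (LOC101740496 least so), and the batch 1 trimolters are red in library 1 for some genes and in library 2 for others.

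Levels between genes were compared on the authors' FPKM, which are scaled by length. In the trimolters of both batches the order of the 11 genes by mean FPKM was the same. In batch 1 that order rests on 2 libraries, where LOC101738995 overlapped LOC101740055 and the latter LOC101742737. From LOC101735336 down to LOC101744641, in the order given below, each gene overlapped the next in batch 1. LOC101735636 was highest, at 97.2 FPKM (n = 2 libraries with a value) in batch 1 and 129 ± 30.8 FPKM (SD, n = 3) in batch 2. LOC101738995, LOC101740055, LOC101742737 and LOC101740909 followed, from 94.7 down to 58.6 FPKM in batch 2, where the libraries of LOC101740055 overlapped those of LOC101742737 and the latter those of LOC101740909.

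A step separated these 5 genes from the other 6. LOC101735336 was at 17.3 ± 2.42 FPKM and EAAT-2 at 12.6 ± 3.24 FPKM in the batch 2 trimolters. LOC101742259, LOC101740496, LOC101744641 and LOC101740462 followed, down to 3.56 ± 0.396 FPKM for the last, and EAAT-2 overlapped LOC101742259, as LOC101740496 did LOC101744641 and the latter LOC101740462. In the tetramolters LOC101740496 had the lowest mean in both batches, at 1.17 ± 0.343 and 0.514 ± 0.382 FPKM, with libraries that overlapped those of LOC101740462. LOC101738995 had the highest mean in batch 1, at 36.7 ± 3.48 FPKM, and LOC101735636 in batch 2, at 59.6 ± 22.5 FPKM, where it overlapped LOC101740055.

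The genes were not neighbours of each other. In the gene order of the RefSeq assembly, used for order alone, LOC101735336 and LOC101744641 were the 1 pair on a chromosome together, with 134 genes between them. The nearest gene with a mean of at least 2 CPM on either side of each member gave 22 neighbours, and 0 of them had differences of -0.8 or lower in both batches. Their median difference was 0.01 in batch 1 and -0.04 in batch 2. LOC101742265, beside LOC101744641, was the 1 neighbour whose tetramolters lay below its trimolters in both batches, by -0.63 and -0.39, an order that 2.18% of the 9354 genes showed. EAAT-2 lay between LOC101746113 (-0.32 and -0.58) and LOC101746256 (-0.22 and -0.05).

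In bulk tissue, fewer cells of a type and less RNA per cell cannot be told apart, so levels of tissue markers are given beside these results. The muscle list, of which 6 of 14 symbols were found, summed to 3455 to 6325 CPM in trimolters and 9549 to 10510 CPM in tetramolters of batch 1, and to 5251 to 6450 and 4818 to 5499 CPM in batch 2. That sum hides genes of the list that did not all move together. In tetramolters edgeR called 4 of the 6 higher and 1 lower in batch 1, and 1 higher and 3 lower in batch 2. Of all tested genes, 22.7% and 18.3% were called lower, and the share called higher is not given here. TpnI, Titin1, Titin2 and Projectin were called higher in batch 1, and Titin1, Titin2 and Projectin lower in batch 2. A3 (-0.97 and 1.55) went against these genes in each batch, and whether it marks muscle alone was not checked. The 4 midgut aminopeptidase genes found summed to 1578 to 4478 and 1548 to 1816 CPM in batch 1 and to 3024 to 3431 and 3935 to 5371 CPM in batch 2. The haemocyte genes PPO1 and PPO2 summed to 443 to 2200 and 1273 to 1387 CPM in batch 1 and to 3349 to 4026 and 2132 to 2591 CPM in batch 2. Elav, a neuronal RNA-binding protein gene and the 1 marker found for the nervous system, was at 23.9 to 30.1 and 19.0 to 24.7 CPM in batch 1 and at 18.7 to 22.9 and 28 to 32.9 CPM in batch 2. Fat body genes (Sp1, Sp2 and VG, 3 of 6 found) stayed at or below 64.8 CPM in sum. Whether these genes mark fat body at this stage was not checked, so the amount of fat body is not read from them. Silk gland genes (4 of 6) stayed at or below 1.61 CPM in sum, and 0 of 3 tracheal symbols were found. In none of these lists did the summed level of all tetramolter libraries lie below that of all trimolter libraries in both batches. The part of these markers in the values of the 11 genes was not tested.

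Genes of the hormone lists were followed beside the set, which could not hold 6 of the 7 tested genes of ecdysteroid synthesis and inactivation, since their symbols start with Cyp. Of 7 ecdysone response genes, edgeR called 1 higher and 3 lower in tetramolters in batch 1, and 0 higher and 2 lower in batch 2. Of 7 juvenile hormone genes, it called 1 higher and 3 lower in batch 1, and 1 higher and 1 lower in batch 2. For the 7 genes of ecdysteroid synthesis and inactivation, the counts were 1 higher and 0 lower, and 2 higher and 1 lower. Of all tested genes, 22.7% and 18.3% were called lower in batch 1 and batch 2, and the share called higher is not given here. Ftz-f1, a nuclear receptor, was called lower in both, at -0.50 (SE 0.15, edgeR adjusted p = 0.0199) and -0.72 (SE 0.15, edgeR adjusted p = 0.00362), which is smaller than the differences the rule asked for. E74 and Br-c were called lower in batch 1 alone and USP in batch 2 alone. E75 was called higher in batch 1 (0.35, SE 0.11, edgeR adjusted p = 0.0244). Between the trimolter batches, where 15.5% of all tested genes were called, edgeR called 1 of 7 ecdysone response genes lower (E74, an early response transcription factor, -0.64, SE 0.18, adjusted p = 0.0317). It called 1 of 7 juvenile hormone genes higher and 1 lower, and 1 of 7 genes of ecdysteroid synthesis and inactivation higher. Between the tetramolter batches, where 58.8% of all tested genes were called, the counts were 0 higher and 3 lower, 4 higher and 1 lower, and 2 higher and 1 lower, in the same order. Cyp306a1, a hydroxylase of ecdysteroid synthesis, rose by 1.06 (SE 0.15) in the batch 2 trimolters and fell by 1.92 (SE 0.16) in the batch 2 tetramolters (edgeR adjusted p = 0.00204 and 3.19e-06).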

How the data were processed

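Poly(A) RNA of 12 libraries in 4 groups of 3 was measured by paired-end sequencing. The submitters' processing notes name DESeq2 1.38.3, StringTie 2.2.1, HISAT2 2.2.1 and Trimmomatic 0.39. Not given in the sources used here: what counted the reads, against which build and gene models, and whether strand was used. The deposited table holds whole-number counts per gene, not normalized, and the deposited FPKM were scaled by the authors for length and depth. For trimolter 2 of batch 1 no FPKM were given in its column, the 1 column of per-sample values not used here. Of 17583 rows, 511 numbered additions to the annotation (0.21% to 0.264% of counts) were left out, and library totals were then 13420645 to 15611833 counts, so low values carry counting error beside the spread of replicates. Symbols came from RefSeq (14945 rows matched).

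CPM were computed from column totals, and members were chosen on log2(CPM + 1) with a pseudocount of 1, a mean CPM of at least 2 and a difference of at most -0.8 in each batch. Members and lists were chosen with earlier results of these data known, and the 0.4 split between batches, the neighbouring genes, EAAT-1 and ranges with TMM factors, after the members' values were seen. Counts were fitted with edgeR 4.0.16 (quasi-likelihood F-test, TMM, filterByExpr, 10721 genes, all 12 libraries, a mean per group, R 4.3.3), with Benjamini-Hochberg adjustment over all tested genes and a threshold of 0.05; SEs are the log2 fold change over the root of F, and tests are 2-sided. Alternatives used DESeq2 1.42.0, limma 3.58.1 (voom, and log2(FPKM + 1)), other scaling, filters, single libraries left out and replicate number as a block. The edgeR fit alone was tested on simulated counts, for the batch contrast averaged over molting types. That simulation gave all genes the same spread and held no difference between molting types. The other fits and contrasts were not tested in this way. Marker lists (muscle, midgut, fat body, haemocyte, silk gland, nervous system, trachea) and hormone lists (ecdysone response, juvenile hormone, ecdysteroid synthesis and inactivation) were matched by symbol. The rule for named genes was to name members with a symbol and, of LOC numbers without a product, the largest differences and highest levels; since the members are few, all are named.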

Additional observations from a re-analysis of the deposited data

Results flagged for a closer look

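By column totals, the libraries of LOC101742737 lay on opposite sides between the batches in the 2 molting types, with no overlap in either. Its mean log2(CPM + 1) was lower in batch 2 than in batch 1 in trimolters (-0.19) and higher in tetramolters (0.65). In the edgeR fit the change in trimolters was -0.16 (SE 0.13, adjusted p = 0.441) and did not pass, while that in tetramolters passed. With TMM factors the trimolter ranges overlapped (149 to 159 CPM in batch 1 and 125 to 151 CPM in batch 2), so the opposite order in trimolters rests on column totals. The difference between the molting types was not tested, because it is built from the same group differences that chose the gene.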

How the results depend on the processing

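The number of genes that met the rule was 27 with a difference of at most -0.6 and 6 with at most -1, in place of 11 at -0.8. It was 9 to 16 over the runs without 1 library each, 16 with a pseudocount of 0.5 and 14 with TMM-scaled CPM. On FPKM it was 11, of which 8 were the same genes (LOC101735336, LOC101740909 and LOC101744641 were lost). FPKM lacked batch 1 trimolter 2, however, and on counts without that library LOC101735336 and LOC101744641 were lost too. Without 1 library each, the number of members that differed between batches was 1 to 3 for the average of the molting types, 0 for trimolters and 3 to 6 for tetramolters. The average gave 1 without batch 1 trimolter 3, batch 1 tetramolter 1 or 2, batch 2 trimolter 3 or batch 2 tetramolter 3. Deviations of same-numbered libraries were at most weakly correlated (r from -0.067 to 0.147 over 18 pairs, 3 above 0.1). Libraries of different number gave r from -0.176 to 0.141 over 36 pairs, also with 3 above 0.1. Replicate numbers were not taken as pairs. With replicate number as a block, the counts were 3, 0 and 6, EAAT-2 being added in the average (edgeR adjusted p = 0.0183) and EAAT-2 and LOC101740496 in tetramolters. No called change of a member reversed sign in any setting run.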
